A study of Mus musculus with 12 samples.

Results

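The 40 genes described here are markers and machinery of cell division, from the cyclins that start DNA replication to the motors of the mitotic spindle. They were taken as the rows of the deposited count matrix whose gene symbol is on a list of 40 symbols, and all 40 were found among 49585 genes. The libraries were made from whole lungs of the mouse strain C57BL/6J after the melanoma line MO4 had been placed under the skin. The 12 libraries formed 4 groups of 3. The young anti-PD-1 group was 2 months old and received an antibody against PD-1, a receptor that restrains activated T cells. The other groups were 22 months old. Of these, aged control received a rat antibody of matched isotype, aged anti-PD-1 received anti-PD-1, and the combination group received anti-PD-1 and an antibody to the receptor of the cytokine IL-21. Antibodies went into the peritoneum, and the labels give days 3, 7 and 11 after tumour inoculation for anti-PD-1 and control antibody. No day is given for the antibody against the IL-21 receptor. No young group with control antibody and no group given only the IL-21 receptor antibody was analysed here. Separate mice for the libraries of a group are not stated in the labels, and p-values here reflect the spread among samples only, part of which may be technical.

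A dividing cell first licenses its replication origins by loading the MCM helicase with CDC6 and CDT1, then copies its DNA in S phase under cyclin E and cyclin A, and then enters mitosis under cyclin B and CDK1. Aurora and Polo-like kinases build the spindle, the BUB1 and TTK kinases delay anaphase until every chromosome is attached, and the anaphase-promoting complex with CDC20 and UBE2C ends mitosis by degrading cyclins. Most of these genes are transcribed only in cycling cells: E2F factors drive the S phase genes, and the MuvB complex with B-MYB and FOXM1 drives the mitotic genes through CHR elements. In the adult lung most structural cells are quiescent, and dividing cells include alveolar macrophages, lymphocytes and repairing epithelium.

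The promoters of the members were searched for 3 kinds of motif on both strands, and 33 of the 40 were in the table of promoter windows from RefSeq (build GRCm38.p6, 250 bases before to 50 after the start of each gene). The CHR words TTTGAA and TTCGAA were in 15 of 20 mitosis genes (75%), in 2 of 11 S phase genes (18.2%) and in 19.4% of all 27025 windows of the same length. The E2F words TTTCCCGC, TTTCGCGC, TTTGCCGC and TTTGGCGC were in 6 of 11 S phase genes (54.5%), in 1 of 20 mitosis genes and in 2.32% of all windows. CCAAT, which NF-Y binds, was in 16 of 20 mitosis genes and 7 of 11 S phase genes, against 37.9% of all windows. Both general markers, Mki67 and Top2a, held CHR and CCAAT words. A match describes letters only. The windows below are those of Cdt1 and of Top2a, Mki67, Bub1b and Mcm7, which had the smallest adjusted p between anti-PD-1 and control in aged lungs. Of these, only Top2a and Cdt1 had an adjusted p under 0.05 in any comparison of the edgeR fit. Capitals mark every CHR, E2F or CCAAT word or its reverse complement. Top2a (chr11:99024140-99024439, minus strand) held 4 CHR and 6 CCAAT words.
Top2a: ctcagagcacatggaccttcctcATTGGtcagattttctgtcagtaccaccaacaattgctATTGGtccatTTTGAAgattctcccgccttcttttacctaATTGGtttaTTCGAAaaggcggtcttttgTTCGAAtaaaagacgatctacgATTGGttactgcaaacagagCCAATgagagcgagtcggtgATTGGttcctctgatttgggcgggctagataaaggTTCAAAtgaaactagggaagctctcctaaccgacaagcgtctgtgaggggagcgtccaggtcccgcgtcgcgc
Mki67 (chr7:135716330-135716629, minus strand) held 2 CHR and 3 CCAAT words.
Mki67: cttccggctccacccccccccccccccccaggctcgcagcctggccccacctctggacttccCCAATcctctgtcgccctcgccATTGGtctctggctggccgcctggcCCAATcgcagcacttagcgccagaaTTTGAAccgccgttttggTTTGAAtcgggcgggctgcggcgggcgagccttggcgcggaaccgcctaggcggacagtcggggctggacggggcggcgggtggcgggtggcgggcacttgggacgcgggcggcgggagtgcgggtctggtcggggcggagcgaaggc
Bub1b (chr2:118597961-118598260, plus strand), a checkpoint gene of mitosis, held 2 CHR words and 1 CCAAT.
Bub1b: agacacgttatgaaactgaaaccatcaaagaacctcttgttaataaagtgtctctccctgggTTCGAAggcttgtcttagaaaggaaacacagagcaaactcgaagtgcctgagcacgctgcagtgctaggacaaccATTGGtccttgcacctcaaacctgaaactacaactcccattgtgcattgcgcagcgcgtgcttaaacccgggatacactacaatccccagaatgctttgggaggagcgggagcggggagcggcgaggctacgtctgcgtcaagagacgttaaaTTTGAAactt
Mcm7 (chr5:138171834-138172133, minus strand), an S phase gene, held 2 E2F words, 1 CHR word and 3 CCAAT words, of which 1 shares its first base with the end of an E2F word. This whole window lies inside the span that the deposited annotation gives for the gene (chr5:138164583-138172422).
Mcm7: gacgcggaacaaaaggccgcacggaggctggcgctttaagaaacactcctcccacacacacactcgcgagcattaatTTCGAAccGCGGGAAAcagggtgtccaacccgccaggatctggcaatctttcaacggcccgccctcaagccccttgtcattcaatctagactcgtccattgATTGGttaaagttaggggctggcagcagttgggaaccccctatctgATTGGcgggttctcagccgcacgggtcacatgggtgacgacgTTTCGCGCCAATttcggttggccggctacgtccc
Cdt1 (chr8:122567765-122568064, plus strand) held 1 E2F word and neither of the other kinds.
Cdt1: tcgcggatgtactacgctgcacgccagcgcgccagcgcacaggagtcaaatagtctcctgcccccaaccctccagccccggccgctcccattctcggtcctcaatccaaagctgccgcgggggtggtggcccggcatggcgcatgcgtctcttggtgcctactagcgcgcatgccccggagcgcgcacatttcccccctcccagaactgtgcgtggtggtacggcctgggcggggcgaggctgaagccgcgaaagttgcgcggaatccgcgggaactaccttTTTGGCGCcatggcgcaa

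**Figure D1:**
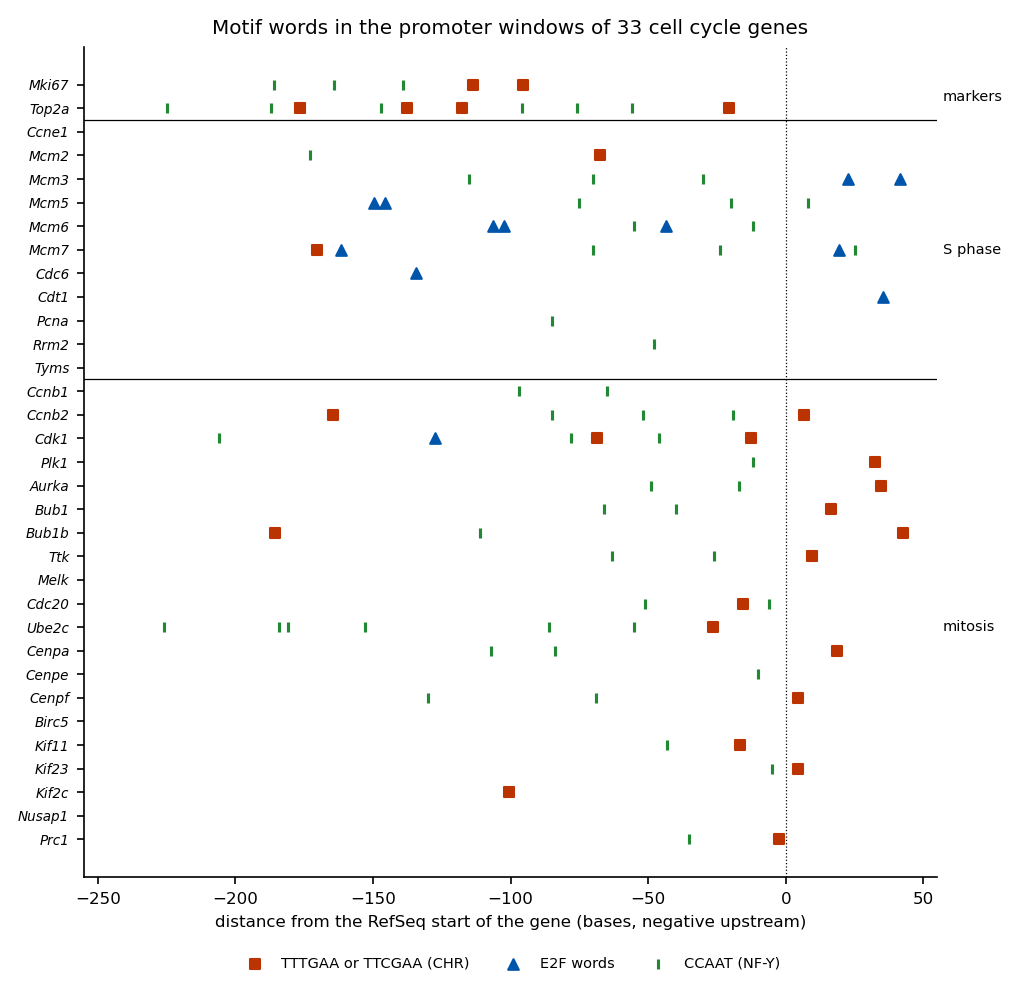
Positions of the CHR, E2F and CCAAT words in the promoter windows of 33 members (x axis: bases from the RefSeq start of the gene, negative upstream). E2F words appear in 6 of the 11 S phase genes and CHR words in 15 of the 20 mitosis genes.

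Library totals ran from 16021877 to 22058620 counts, and 18556 genes had enough counts to be tested, among them all 40 members. A member had a median of 101 counts in a library (range 1 to 2541), and only Ttk and Kif2c had fewer than 10 in any library. Levels are TMM-scaled CPM. A gene is called where edgeR gave it a p under 0.05 after Benjamini-Hochberg adjustment across the 18556 genes. Fold changes are log2 values ± SE. Lung identity was checked on Sftpc (9465 to 17991 CPM) and Ager (1280 to 4559 CPM), markers of the alveolar epithelium, which were high in all 12 libraries. Of 7 melanoma genes, Tyrp1, Dct, Tyr and Sox10 had 21, 41, 4 and 44 counts over all 12 libraries together, while Pmel, Mlana and Mitf had 719, 600 and 2959. Only Pmel, Mlana and Mitf were tested, and 1 of these 3 was called between aged control and aged anti-PD-1, beside 10.9% of all genes. Mlana fell by 0.92 ± 0.26 on the log2 scale under anti-PD-1 (adjusted p = 0.0361). The fold changes of the 3 had a median of -0.117 and a highest value of 0.126, with 1 above 0 and 2 below. In 8 members (Ccne2, Mcm7, Ccna2, Cdc20, Ube2c, Kif20a, Nusap1 and Prc1) a protein-coding gene with counts overlaps on the other strand, and whether counting used strand is not given in the sources used here, so their values are uncertain. Over all libraries, Elovl1 had 39410 counts beside 1167 for Cdc20, and Cops6 had 15189 beside 5594 for Mcm7. Ints8 had 5918 beside 1673 for Ccne2, and Exosc9 had 6564 beside 3348 for Ccna2. Cdc23 had 6338 beside 2593 for Kif20a, and Rccd1 had 1748 beside 1076 for Prc1. Tnnc2 had 38 beside 1372 for Ube2c, and Oip5 had 165 beside 1023 for Nusap1. Reads of Pcna and Ccnb2 could also be split with processed copies: Pcna-ps2 had 8 to 24 counts a library beside 1541 to 2541 for Pcna, and Ccnb2-ps had 9 to 48 beside 63 to 114 for Ccnb2. Mitochondrial transcripts took 6.05% to 7.22% of counts in the young group, 7.32% to 10.4% in aged control, 7.88% to 11.9% in aged anti-PD-1 and 11.5% to 14.9% in the combination group.

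Levels per kilobase of exon spanned a wide range. Pcna, the clamp that holds DNA polymerase on its template and that also serves DNA repair, was highest at 45.3 CPM per kb on average over the 12 libraries. The MCM helicase subunits ran from 2.05 CPM per kb for Mcm2 to 6.74 for Mcm4, and Cdt1 was at 4.73. Mki67, the common marker of cycling cells, was at 2.17 CPM per kb, Top2a at 1.5 and Cdk1 at 0.921. The checkpoint kinase Ttk (0.157) and the large kinetochore genes Cenpf (0.171) and Cenpe (0.264) were lowest. Among the mitotic genes, Ccna2 (3.56) and Ccnb2 (2.99) were highest on this scale.

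In aged lungs, the largest shift of the 40 members, by their median, was between anti-PD-1 and control antibody. Top2a rose by 0.83 ± 0.20 (adjusted p = 0.0231) and was the single member called, 1 of 40 against 10.9% of all genes tested. A further 14 members had an unadjusted p under 0.05 without passing the adjustment, all with higher levels under anti-PD-1, so 15 of 40 members were under 0.05 against 28.9% of all genes. The log2 fold change was above 0 in 34 of 40 members (48.2% of all genes), with a member median of 0.35 beside -0.02 for all genes. In 8 members every aged anti-PD-1 library was above every control library (Top2a, Ccnb1, Cenpe, Kif2c, Mcm4, Mcm6, Mcm7 and Kif20a), 8 of 40 against 16.1% of all genes, and in none was every library below (16.4% of all genes). In whole tissue, more dividing cells and more RNA per dividing cell cannot be told apart, here and in every comparison that follows.

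The call of Top2a depended on the libraries. Its adjusted p was 0.0652 without aged control library 3, 0.0593 without aged anti-PD-1 library 1, 0.0833 without aged anti-PD-1 library 3 and 0.0755 in a fit of these 6 libraries alone, while its fold change stayed between 0.67 and 1.13. DESeq2 called 6 members here, all higher (Top2a, Mki67, Mcm7, Ccnb1, Bub1b and Kif11), against 16% of all genes. With limma-voom 2 were called (Top2a and Ccnb1), against 11.2% of all genes. Without aged control library 2 the edgeR count went from 1 to 5, with 3.21% of all genes called, and the member median to 0.50. Without aged anti-PD-1 library 3 the count went to 0 (3.79% of all genes called) and the median to 0.22. Scaling by library totals alone gave 6 called members, with 10.6% of all genes called and an all-gene median of 0.09. Of all calls 71.5% were then higher, against 48.9% with TMM.

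When the IL-21 receptor antibody was added to anti-PD-1, the member that passed the test was higher, while most others had values below 0 without a call. Cdt1, which loads the helicase onto origins, rose by 0.69 ± 0.18 (adjusted p = 0.0311) in the combination group against aged anti-PD-1, 1 of 40 members against 9.02% of all genes tested. The fold change was above 0 in 11 of 40 members (48.9% of all genes) and below 0 in 29, with a member median of -0.18 beside -0.01 for all genes. An unadjusted p under 0.05 was reached by 5 members (26.4% of all genes): Cdt1 and Ube2c were higher, and Top2a (-0.55 ± 0.20, adjusted p = 0.102), Kif11 (-0.64 ± 0.26, adjusted p = 0.127) and Prc1 (-0.56 ± 0.26, adjusted p = 0.186) were lower without being called. Every combination library was below every aged anti-PD-1 library in 6 members (Top2a, Kif11, Cdc6, Ccnb1, Kif2c and Kif20a; 16.5% of all genes) and above in 2 (Cdt1 and Kif23; 15.7% of all genes). The aged anti-PD-1 libraries serve in this comparison and in those with control and young lungs, so these comparisons are not independent of each other.

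The call of Cdt1 was lost without aged anti-PD-1 library 1 (adjusted p = 0.112) or library 2 (0.0751), without combination library 2 (0.161, with a fold change of 0.52), in a fit of the 6 libraries alone (0.0532) and with library totals alone (0.0567, with a fold change of 0.49). Library totals alone moved the median of all genes in this comparison to -0.21, so only 11.9% of all calls were higher against 51.7% with TMM. Under that scaling 3 members were called lower (Top2a, Mcm7 and Kif11), beside 16.4% of all genes called in either direction, and the member median was -0.38.

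Between aged and young lungs under anti-PD-1, no member was called by edgeR, against 15.3% of all genes tested. No member had an unadjusted p under 0.05 (29.5% of all genes), and DESeq2 and limma-voom also called 0 (18.7% and 15.2% of all genes). The fold change (aged minus young) was above 0 in 28 of 40 members (49.3% of all genes), the member median was 0.08 beside -0.01 for all genes, and the values ran from -0.40 for Cdc20 to 0.61 for Kif2c. In 35 of 40 members the 95% interval lay within 2-fold in either direction. Every aged library was above every young one in Ccnb1 (19.7% of all genes) and below in Cdc20 (19.9% of all genes). Missing the threshold does not show that levels were alike: for Ccnb1 the interval ran from -0.17 to 1.34 and for Cdc20 from -0.97 to 0.16.

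Between the combination group and aged control, edgeR called no member and no gene at all (0% of genes tested). An unadjusted p under 0.05 was reached by 3 members, all with higher levels in the combination group, against 6.62% of all genes: Mki67 (0.41 ± 0.18), Mcm4 (0.24 ± 0.09) and Cdt1 (0.42 ± 0.18). DESeq2 called 68 genes here but no member, and limma-voom called no member. The fold change was above 0 in 32 of 40 members (48% of all genes), with a member median of 0.23 beside -0.01 for all genes. Every combination library was above every control library in Mcm4, Mcm5 and Cdt1, 3 of 40 against 3.92% of all genes.

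**Figure D2:**
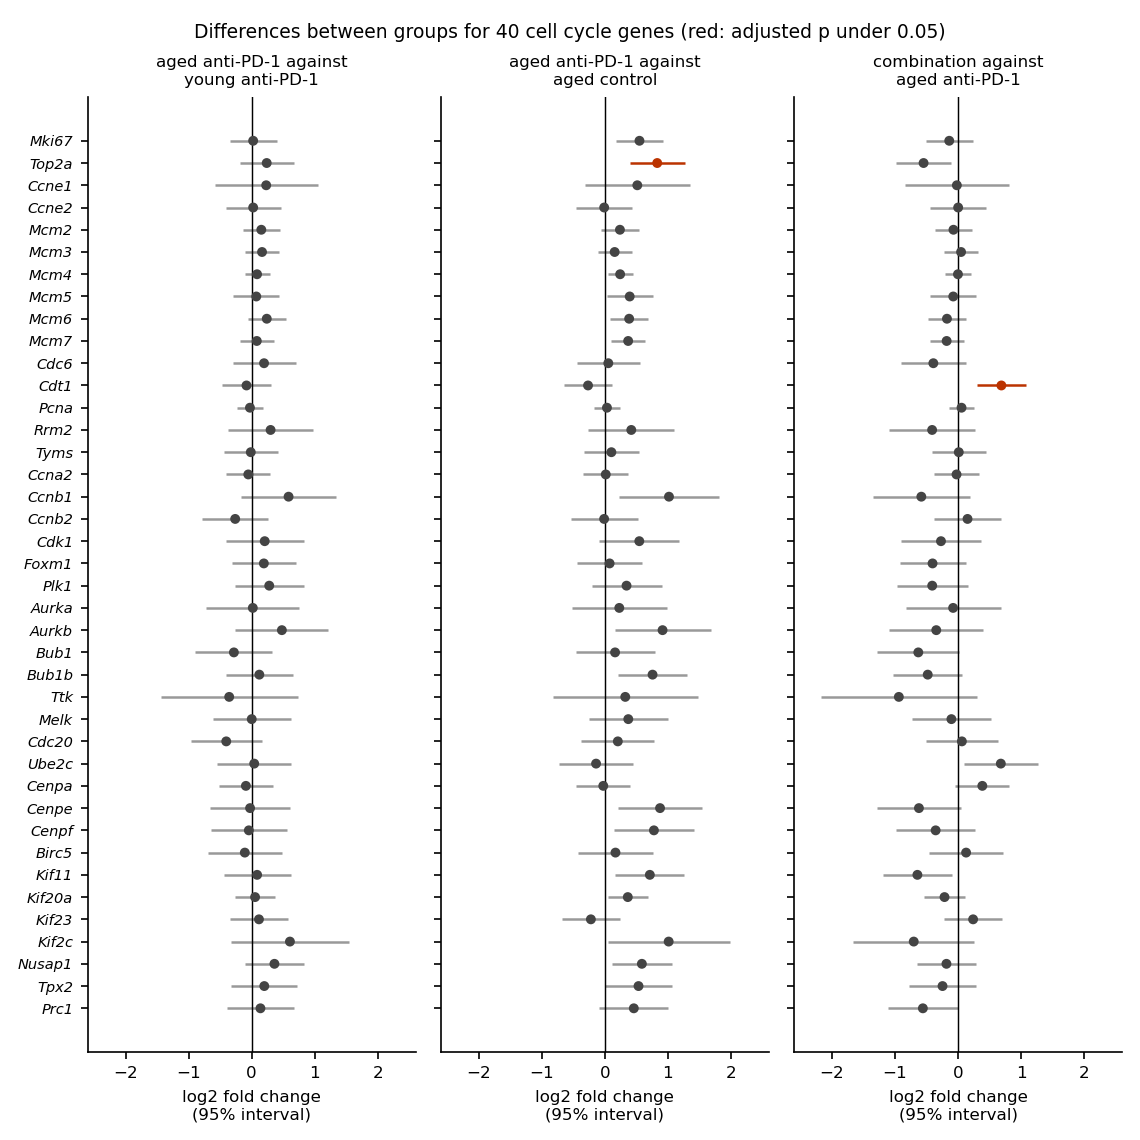
Log2 fold changes of the 40 members with 95% intervals in 3 comparisons (x axis: log2 fold change; red: adjusted p under 0.05). The values lie mostly right of 0 for aged anti-PD-1 against aged control (34 of 40) and mostly left of 0 for the combination against aged anti-PD-1 (29 of 40), and 1 member is red in each of these.

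Of the general markers of division, Top2a was called and Mki67 was not. Top2a (ENSMUSG00000020914, chr11:98992943-99024189 on mm10) encodes the topoisomerase that untangles replicated chromosomes. Its levels were 7.48, 13.6 and 8.5 CPM in aged control libraries 1 to 3, and 18, 14 and 20.5 in aged anti-PD-1. They were 15.2, 16.3 and 13.0 CPM in young anti-PD-1, and 11.0, 12.3 and 12.6 under the combination. All aged anti-PD-1 libraries were above all control and all combination libraries, but control library 2 came close to the lowest aged anti-PD-1 library, and the young libraries overlapped with aged anti-PD-1. Mki67 (ENSMUSG00000031004, chr7:135689784-135716361) encodes Ki-67, a coat protein of mitotic chromosomes. It was at 14.5, 21.5 and 14.1 CPM in aged control, 26.1, 20.9 and 26.1 in aged anti-PD-1, 24.6, 27.4 and 19.9 in young anti-PD-1 and 22.5, 19.0 and 24.9 under the combination. Control libraries 1 and 3 were below the other 10 libraries, and control library 2 was among them. The difference of 0.55 ± 0.18 between aged anti-PD-1 and control did not pass the adjustment (adjusted p = 0.0608). Against aged anti-PD-1, the combination group differed by -0.14 (95% interval -0.52 to 0.24) for Mki67.

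**Figure D3:**
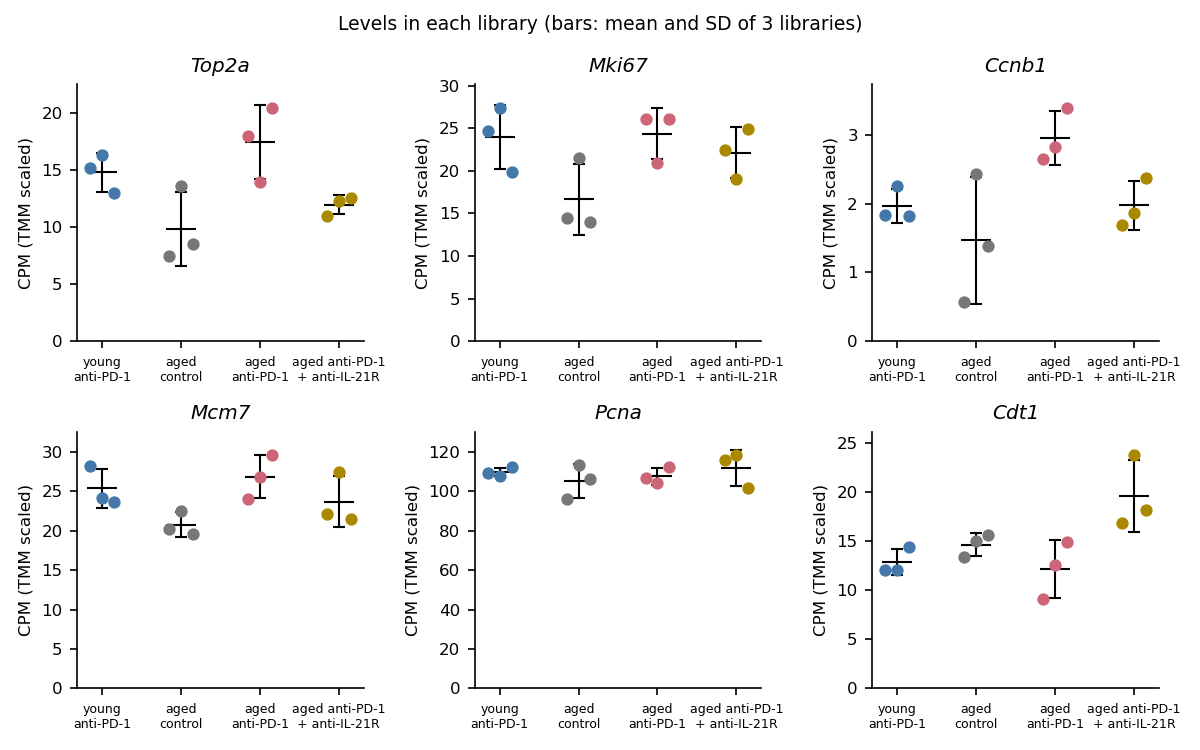
CPM of 6 members in each of the 12 libraries (y axis from 0; points: libraries; bars: mean and SD of 3 libraries). Top2a was at 7.48 to 13.6 CPM in aged control and 14 to 20.5 in aged anti-PD-1, while Pcna stayed between 96.3 and 118 CPM in all 12 libraries.

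The cyclin E genes, whose products open S phase, were not called in any comparison. Ccne1 was at 1.28, 1.30 and 1.08 CPM in young anti-PD-1 and 1.61, 0.846 and 0.534 in aged control. It was at 0.966, 1.36 and 1.99 CPM in aged anti-PD-1 and 1.63, 1.28 and 1.32 under the combination. The 4 groups overlapped, and the 95% interval for aged anti-PD-1 against control ran from -0.32 to 1.35. Ccne2 had group means of 7.15 to 7.32 CPM, and its fold changes in the 4 comparisons were between -0.01 and 0.02.

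Among the 9 genes of origin licensing and the replication helicase, the MCM subunits had small differences and none was called. Mcm7 was at 20.3, 22.6 and 19.6 CPM in aged control and 24.1, 26.9 and 29.6 in aged anti-PD-1. It was at 28.2, 24.2 and 23.7 CPM in young anti-PD-1 and 22.1, 27.4 and 21.6 under the combination. The aged anti-PD-1 libraries were above all control libraries, with a difference of 0.37 ± 0.13 that was not called (adjusted p = 0.0723). Mcm4, Mcm5 and Mcm6 had differences of 0.24 ± 0.09, 0.39 ± 0.17 and 0.39 ± 0.14 in the same comparison with adjusted p of 0.104, 0.145 and 0.0892. Mcm2 was at 11.9, 14.1 and 15.6 CPM in young anti-PD-1, 11.7, 14.1 and 13.4 in aged control, 13.8, 16.9 and 15.6 in aged anti-PD-1 and 16, 13.5 and 14.4 under the combination. Its 4 groups overlapped, and the difference between aged anti-PD-1 and control was 0.24 ± 0.14 (adjusted p = 0.269). Mcm3 overlapped between these groups as well, at 0.16 ± 0.13.

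Pcna had narrow intervals around 0. It was at 109, 108 and 112 CPM in young anti-PD-1, 96.3, 114 and 106 in aged control, 107, 104 and 113 in aged anti-PD-1 and 116, 118 and 102 under the combination. All groups overlapped, and the interval for aged anti-PD-1 against control was -0.17 to 0.23. Cdt1 (ENSMUSG00000006585, chr8:122568015-122573554) was at 12.1, 12.1 and 14.5 CPM in young anti-PD-1 and 13.3, 15 and 15.6 in aged control. It was at 9.07, 12.6 and 14.9 CPM in aged anti-PD-1 and 16.9, 23.8 and 18.2 under the combination. Every combination library was above the other 9 libraries, and combination library 2 was the highest. Against aged control the combination group was 0.42 ± 0.18 higher without a call (adjusted p = 0.734), and aged anti-PD-1 was -0.27 ± 0.18 against control (adjusted p = 0.347). Cdc6, the partner of Cdt1 in loading, had means of 2.81 ± 0.50 CPM (SD, n = 3) in control, 2.92 ± 0.41 in aged anti-PD-1 and 2.22 ± 0.26 in the combination group, and its fold change between combination and aged anti-PD-1 was -0.39 ± 0.24 (adjusted p = 0.321).

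The enzymes that supply deoxynucleotides were not called in any comparison. Rrm2, the small subunit of ribonucleotide reductase, had means of 5.30 ± 2.3 CPM (SD, n = 3) in aged control and 7.09 ± 2.4 in aged anti-PD-1, a difference of 0.42 ± 0.32. Tyms, which makes thymidylate, had group means of 8.0 to 8.67 CPM. For both, the spread within the control group covered the means of the other groups.

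Of the mitotic cyclins, Ccnb1 had the largest differences. Ccnb1 (ENSMUSG00000041431, chr13:100778650-100786570), the activating subunit of CDK1, was at 0.571, 2.43 and 1.39 CPM in aged control and 2.65, 2.82 and 3.39 in aged anti-PD-1. It was at 1.83, 2.25 and 1.81 CPM in young anti-PD-1 and 1.69, 1.85 and 2.37 under the combination. The aged anti-PD-1 libraries were the highest 3 of the 12, at 11 to 68 counts a library over all groups. The difference from control, 1.02 ± 0.37, was the largest of the members and was not called (adjusted p = 0.0867), and that between combination and aged anti-PD-1 was -0.58 ± 0.36 (adjusted p = 0.328). Cdk1 was at 5.52, 3.55 and 4.90 CPM in young anti-PD-1, 3.53, 5.30 and 2.24 in aged control, 6.8, 3.87 and 5.44 in aged anti-PD-1 and 5.17, 3.77 and 4.42 under the combination. Its groups overlapped throughout, with 0.55 ± 0.30 between aged anti-PD-1 and control (adjusted p = 0.238). Ccna2 and Ccnb2 had differences of 0.01 ± 0.16 and -0.01 ± 0.25 in that comparison, and Foxm1, the factor that activates mitotic genes, had 0.08 ± 0.24.

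No mitotic kinase gene was called. Their fold changes had a median of 0.34 for aged anti-PD-1 against control (0.16 to 0.91) and of -0.41 for the combination against aged anti-PD-1 (-0.94 to -0.08). Bub1b, the checkpoint protein BUBR1, was at 3.58, 7.00 and 4.65 CPM in aged control, 7.64, 6.23 and 11.8 in aged anti-PD-1, 7.30, 8.91 and 7.40 in young anti-PD-1 and 6.30, 5.5 and 6.59 under the combination. Control library 2 was above aged anti-PD-1 library 2, so the groups overlapped, with 0.76 ± 0.26 between them (adjusted p = 0.0702). Aurkb, the kinase of the chromosomal passenger complex, had 0.91 ± 0.36 (adjusted p = 0.107), and Plk1, Aurka, Bub1, Ttk and Melk had 0.16 to 0.37. Ttk rests on 1 to 31 counts a library.

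The genes that end mitosis were not called. Cdc20, the activator of the anaphase-promoting complex, had means of 6.30 ± 0.29 CPM (SD, n = 3) in young anti-PD-1, 4.15 ± 1.8 in aged control, 4.76 ± 1.1 in aged anti-PD-1 and 4.97 ± 0.47 in the combination group. Ube2c, its ubiquitin-conjugating enzyme, was at 5.21, 3.97 and 6.43 CPM in aged anti-PD-1 and 7.87, 11.3 and 5.80 under the combination. These groups overlapped, and the difference of 0.68 ± 0.27 was not called (adjusted p = 0.129). As with Cdt1, combination library 2 was the highest of the 12.

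Of 4 genes of the centromere and the passenger complex, the large kinetochore proteins had the higher values under anti-PD-1. Cenpe, a kinetochore motor, was at 1.14, 2.14 and 1.34 CPM in aged control and 2.23, 3.57 and 2.69 in aged anti-PD-1, with 0.88 ± 0.31 between them (adjusted p = 0.0847). The groups did not overlap, but control library 2 came close to aged anti-PD-1 library 1. Cenpf had 0.78 ± 0.29 (adjusted p = 0.0998). Cenpa, the centromeric histone, and Birc5, the passenger protein survivin, had -0.03 ± 0.20 and 0.17 ± 0.28.

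Among 7 spindle genes, 6 had values above 0 for aged anti-PD-1 against control, with a median of 0.53. Kif11, the motor that separates the spindle poles, was at 2.03, 4.57 and 3.31 CPM in aged control, 5.5, 4.32 and 6.38 in aged anti-PD-1, 4.43, 5.80 and 5.05 in young anti-PD-1 and 3.54, 3.45 and 3.36 under the combination. Every combination library was below every young and every aged anti-PD-1 library, and control library 2 overlapped with aged anti-PD-1. Kif2c, a microtubule depolymerase, had 1.01 ± 0.45 between aged anti-PD-1 and control (adjusted p = 0.154) at 9 to 47 counts a library. Nusap1, Tpx2, Prc1 and Kif20a had 0.36 to 0.59. Kif23, a motor of the central spindle in cytokinesis, had -0.22 ± 0.21, with 8.15, 16.5 and 11.0 CPM in control against 10.3, 9.85 and 10.3 in aged anti-PD-1.

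Libraries of a group differed together across the members. Aged control library 2 was the highest of its 3 libraries in 33 of 40 members and the lowest in 0, and aged anti-PD-1 library 3 was the highest in 33 of 40 and the lowest in 1. In the other groups no library was highest in more than 16 of 40, and young anti-PD-1 library 3 was the lowest in 23 of 40. These counts, and the correlations below, were not made over all genes tested. They therefore do not show a trait particular to the members. The summed level of the 25 mitosis genes was 98.8, 144 and 94.7 CPM in aged control and 130, 120 and 156 in aged anti-PD-1, so control library 2 was above aged anti-PD-1 libraries 1 and 2. It was 134, 131 and 129 CPM in young anti-PD-1 and 121, 131 and 130 under the combination. The 13 S phase genes summed to 241, 275 and 245 CPM in aged control, 259, 276 and 310 in aged anti-PD-1, 270 (range 269 to 271) in young anti-PD-1 and 261 to 303 in the combination group. The young libraries were close to each other on both sums, and control libraries 1 and 3 had the 2 lowest values of the 12 on both. As a description, the deviations of 2 members from their group means had a median correlation of 0.36 over 780 pairs of genes, and 0.46 among the mitosis genes, across 12 libraries that share their make-up and depth.

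**Figure D4:**
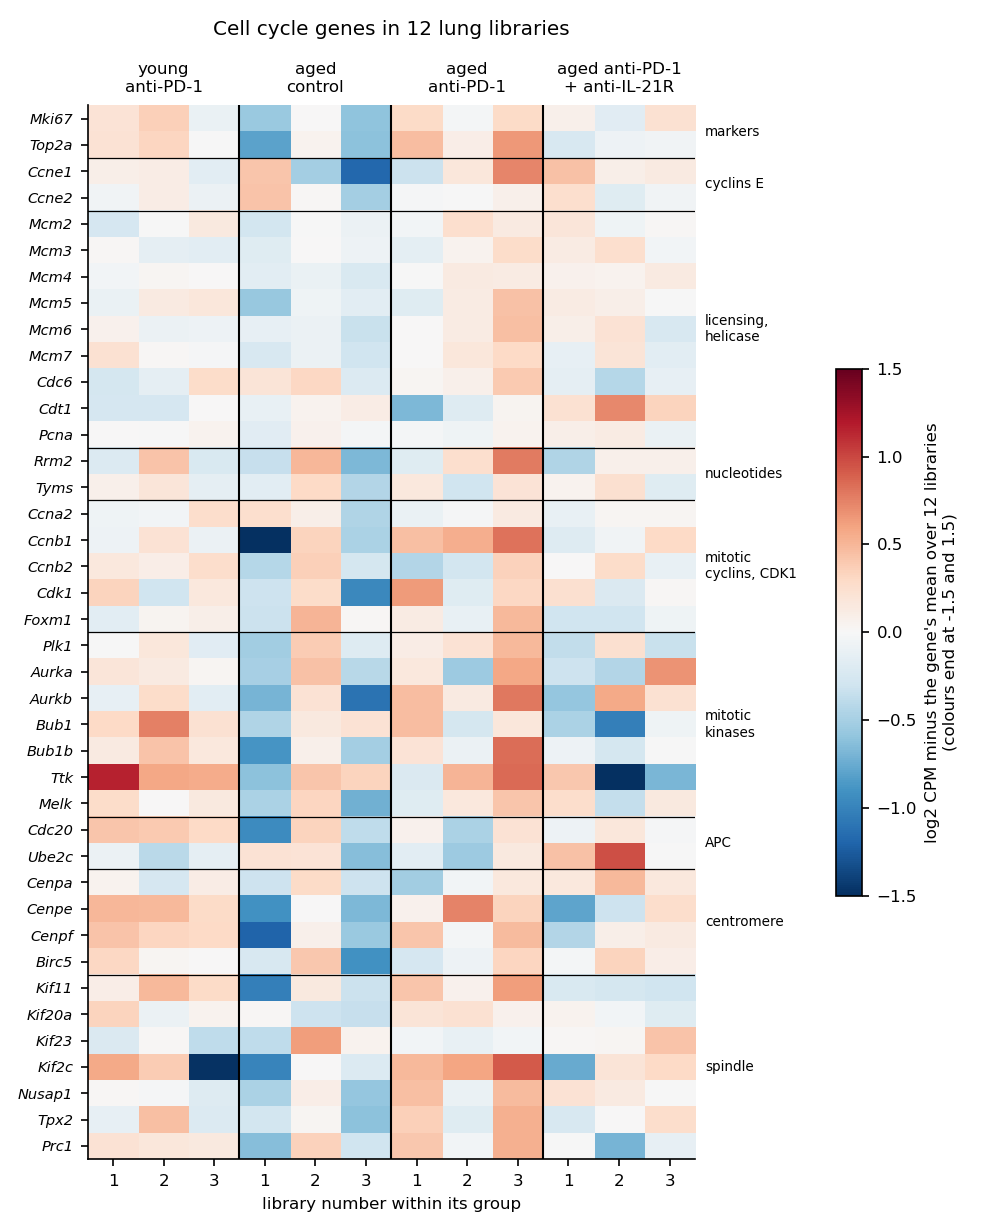
Level of the 40 members in each of the 12 libraries, as log2 CPM minus the mean of the gene over all libraries (rows: genes by role; columns: libraries by group; colours end at -1.5 and 1.5). Aged control libraries 1 and 3 are blue in most rows, and aged control library 2 and aged anti-PD-1 library 3 are the reddest of their groups in 33 of 40 rows each.

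Markers of other cells differed between the same libraries, and so did the mitochondrial share. It was 10.4% in aged control library 2, beside 7.32% and 7.97%, and 11.9% in aged anti-PD-1 library 3, beside 7.88% and 8.31%. The 10 alveolar macrophage markers summed to 3111 CPM in aged control library 2, beside 1490 and 1842 in the other control libraries, and to 3229 CPM in aged anti-PD-1 library 3, beside 2779 and 1850. They summed to 1682 to 1943 CPM in young anti-PD-1 and 2129 to 3138 in the combination group. Combination library 2 had 3138 CPM and the highest mitochondrial share (14.9%), with the mitosis genes at 131 CPM. Between aged control and anti-PD-1, 1 of the 10 genes on the macrophage list was called, higher (Car4), beside 10.9% of all genes. The list had 6 above 0 and 4 below, with a median of 0.24. In whole tissue, the cells that gave the Car4 transcripts cannot be told. The 8 T cell markers, none called there, summed to 78.7 to 111 CPM in aged control with library 2 highest, and to 69.5 to 165 in aged anti-PD-1 with library 3 highest. The 8 neutrophil precursor markers, none called, summed to 871 CPM in aged control library 2, beside 305 and 220. Under anti-PD-1 against control, 4 of 7 endothelial markers rose (summed level 1100 to 1876 CPM in control, 2016 to 2397 in aged anti-PD-1), as did 4 of 8 B cell markers (237 to 427 and 448 to 502 CPM), beside 10.9% of all genes called. The 8 platelet and megakaryocyte markers all had lower values without overlap under anti-PD-1, against 16.4% of all genes, and 3 of them fell (Gp1bb, Itgb3 and Treml1). Their summed level was 1559 to 2046 CPM in control and 1054 to 1164 in aged anti-PD-1. The part of these cells and of the mitochondrial share in the differences of the members was not tested.

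In the combination group, 5 of 10 tested red cell markers rose against aged anti-PD-1, among them Hbb-bs, Hba-a1, Hba-a2 and Alas2, and 5 of 7 endothelial markers fell (9.02% of all genes called). Of the 10 red cell markers, 7 had fold changes above 0 and 3 below, down to -0.65. The 11 red cell markers found summed to 10032 to 13191 CPM in aged anti-PD-1, 27944, 46915 and 19093 in combination libraries 1 to 3, 12801 to 20761 in aged control and 12464 to 15588 in young anti-PD-1. Combination library 2 thus had the highest red cell sum and the highest Cdt1 and Ube2c. Klf1, a factor of red cell precursors, was at no more than 0.901 CPM in any library and at 0 in young library 3, with 60 counts in all. The endothelial sum was 1201 to 1683 CPM in the combination group. The part of red cells, endothelium and the higher mitochondrial share in the results on Cdt1, Top2a and the other members was not tested.

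**Figure D5:**
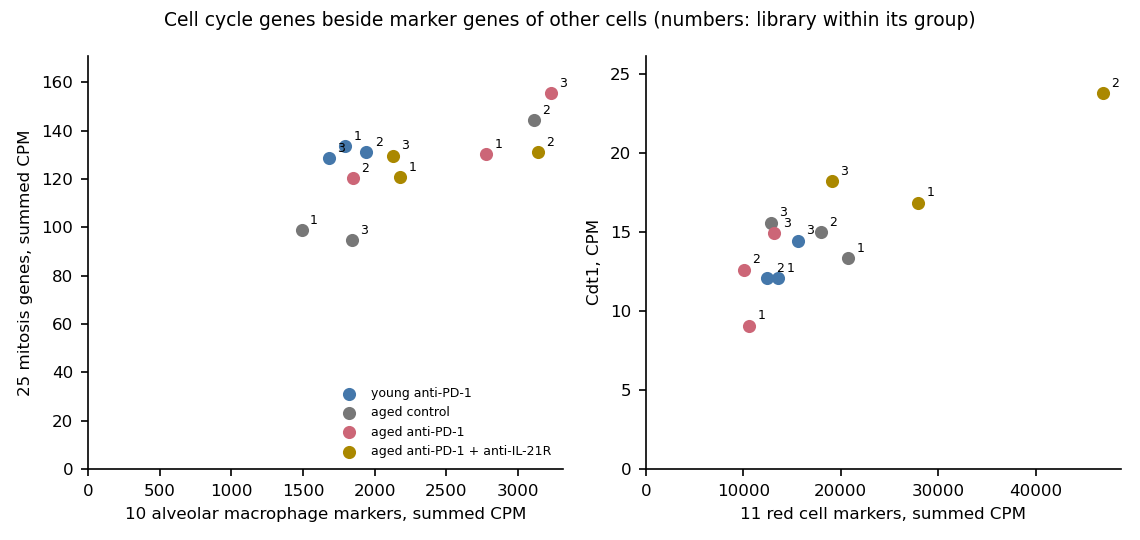
Left: summed CPM of the 25 mitosis genes against that of 10 alveolar macrophage markers; right: CPM of Cdt1 against the summed CPM of 11 red cell markers (points: the 12 libraries, coloured by group and numbered within it). Aged control library 2 and aged anti-PD-1 library 3 are at the upper right on the left side, and combination library 2 is at the upper right on the right side. On the left side, combination library 2 has a macrophage sum of 3138 CPM with a mitosis sum of 131 CPM.

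The wider machinery was followed in 131 further genes, all tested: 39 of replication, 63 of G2 phase and mitosis, and 29 regulators of the cycle. Under anti-PD-1 against control in aged lungs, 10 of the 131 rose and 2 fell, beside 10.9% of all genes called in either direction. Of the replication genes 2 rose and none fell. Both remodel chromatin: Hells (0.91 ± 0.25) and Atad2 (0.80 ± 0.18), the latter at 9.14, 12.4 and 10.4 CPM in control and 19.2, 14.9 and 21.6 in aged anti-PD-1. Of the mitosis genes 4 rose and 2 fell. The condensin genes Smc2 (0.70 ± 0.18), Smc4 (0.42 ± 0.09) and Ncaph (0.67 ± 0.18) and the kinetochore gene Cenpk (1.33 ± 0.40) rose, and the CDK-binding gene Cks2 (-0.80 ± 0.20) and the chromatin gene Hmgb2 (-0.38 ± 0.11) fell. The median over the 63 was 0.46, with 54 above 0 (48.2% of all genes). Of the regulators 4 rose and none fell, namely the G1 kinase gene Cdk6 (0.46 ± 0.13), Cdk2 (0.45 ± 0.13) and the D cyclins Ccnd1 (0.36 ± 0.08) and Ccnd2 (0.39 ± 0.11). Ccnd1 was at 123, 121 and 129 CPM in control and 158, 158 and 160 in aged anti-PD-1. As for the members, the part of endothelial and other cells in the differences of these pathway genes was not tested. Smc4 and Hmgb2 fall outside the naming rule and are named to complete the count. Of the others, Atad2 lost its call without aged anti-PD-1 library 3, and Hells, Smc2, Ncaph, Cenpk, Cks2, Cdk6, Cdk2, Ccnd1 and Ccnd2 lost theirs in 5 to 8 of 14 or 15 other fits.

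For the combination against aged anti-PD-1, 3 of the 131 rose and 6 fell, beside 9.02% of all genes called. The lists gave 1 replication gene higher (Mcm10, 0.89 ± 0.24) and 1 lower (Atad2, -0.75 ± 0.18), and 2 mitosis genes higher and 3 lower. Cks2 (0.73 ± 0.20) and Hmgb2 (0.62 ± 0.11) rose, and Smc2 (-0.66 ± 0.18), Ncaph (-0.62 ± 0.18) and the kinesin gene Kif18a (-0.97 ± 0.26) fell. Of the regulators none rose and 2 fell: Wee1, the kinase that holds CDK1 inactive (-1.0 ± 0.20), and Cdk6 (-0.53 ± 0.13). Wee1 was at 18.4, 24.2 and 20.1 CPM in aged anti-PD-1 and 12.8, 9.79 and 8.64 under the combination, with no overlap. Wee1 lost its call without combination library 2, Atad2 and Cdk6 in 3 of 15 other fits each, and Mcm10, Cks2, Smc2, Ncaph and Kif18a in 5 to 10. The medians of the 3 lists were -0.08, -0.20 and -0.11. As for the members, the part of red cells, endothelium and the mitochondrial share in these differences was not tested.

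Between aged and young lungs under anti-PD-1, 5 of the 131 rose and 3 fell, beside 15.3% of all genes called. Markers of other cells differed between these groups. All 8 platelet and megakaryocyte markers rose (summed level 221 to 422 CPM in young, 1054 to 1164 in aged), as did 7 of 8 B cell markers (220 to 261 and 448 to 502 CPM) and 4 of 8 T cell markers. All 7 markers of type 2 alveolar cells fell (22479 to 27733 CPM in young, 14740 to 16232 in aged), as did 5 of 6 markers of type 1 alveolar cells (6805 to 8081 and 2545 to 4102 CPM). The part of these cells in the differences of the pathway genes was not tested. Of the replication genes 2 rose (Atad2, 0.94 ± 0.18, and Pold1, 0.48 ± 0.15) and 1 fell (Mcm10, -1.23 ± 0.23). Mcm10, which joins the helicase to the polymerases, was at 3.61, 3.15 and 3.92 CPM in young and 1.30, 1.51 and 1.75 in aged anti-PD-1, against 1.97, 2.99 and 2.62 in aged control. Of the mitosis genes 1 fell, the microtubule regulator Stmn1 (-0.47 ± 0.11). Of the regulators Ccnd1 (0.46 ± 0.08), Ccnd3 (0.53 ± 0.11) and Cdk6 (0.46 ± 0.13) rose and Tfdp2, a partner of E2F factors, fell (-0.33 ± 0.10). Atad2, Mcm10, Ccnd1 and Ccnd3 kept their calls in all 15 other fits, while Stmn1, Cdk6, Pold1 and Tfdp2 lost theirs in 2, 4, 7 and 10. The list medians were 0.09, 0.11 and 0.10. Between the combination group and aged control none of the 131 was called by edgeR, nor by DESeq2 or limma-voom. By each tool 8 of the 131 had an unadjusted p under 0.05, beside 6.62% of all genes by edgeR. The smallest p in each list belonged to Hells (0.78 ± 0.26), Cenpk (1.1 ± 0.41) and Wee1 (-0.70 ± 0.21).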

How the data were processed

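The deposited values are raw read counts per gene, 1 column per library, with no normalization by the authors per the file headers. RNA was selected for poly(A) and made into directional libraries, per the labels' protocols. The submitters' processing notes name bcl2fastq 1.8.4, Trimmomatic, HISAT2, featureCounts 1.6.3 and mm10. Options, annotation release and strand setting are not given in the sources used here.

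The members and the other gene lists were chosen with earlier results of these data known. The edgeR filter filterByExpr (by group; at least 10 counts, at least 15 in total) and TMM scaling were applied. All 12 libraries entered 1 quasi-likelihood fit of 4 group means with robust dispersion (R 4.3.3; edgeR 4.0.16; limma 3.58.1), with 8 residual degrees of freedom and a common biological coefficient of variation of 0.156. Tests were two-sided F tests, adjusted by Benjamini-Hochberg over all genes tested. Intervals are at 95%. An exact permutation test of 3 against 3 libraries cannot go below p = 0.1, so single values were tested in the fit alone. Libraries of a group differed beyond counting noise (chi-square per degree of freedom 10.7 to 46.6).

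Members printed for every library were those called, plus Mki67, Top2a, Pcna, Mcm2, Ccnb1, Cdk1 and Ccne1. Mcm7, Bub1b and Kif11 were added after their values were seen. So were Cenpe, Ube2c and Kif23, which are printed only for the libraries of the 2 groups compared. From each of the 3 pathway lists, up to 4 called genes with the largest fold change were named in each comparison, or the 2 with the smallest p. Promoters were those of the 4 members with the smallest adjusted p in the comparison with most calls that held a motif; since 2 comparisons had 1 call each, Cdt1 was added. Of 282 list symbols, 3 matched through RefSeq synonyms and 1 did not match. Some marker genes are not reported here by name. Exon lengths came from GENCODE M21. Alternatives were limma-voom, DESeq2 1.42.0, scaling by RLE or by library totals alone, TMM computed without mitochondrial, immunoglobulin and haemoglobin genes, no filter or a minimum mean CPM of 1, the replicate number as a block, fits restricted to the groups of a comparison, and omission of each library. Plots used matplotlib 3.10.9 under Python 3.11.15.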

Additional observations from a re-analysis of the deposited data

How the results depend on the processing

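Counts of called members depended on the test and the libraries. For aged anti-PD-1 against aged control the count of 1 (10.9% of all genes called) became 6 with DESeq2 (16%), 2 with limma-voom (11.2%) and 6 with library totals alone (10.6%). It became 3 without the filter (5.87%) and 0 in a fit of the 2 groups compared (4.91%). With each library left out in turn it ranged from 0 to 5, beside 3.21% to 10.5% of all genes. Over all alternatives the member median stayed between 0.22 and 0.50. For the combination against aged anti-PD-1 the count of 1 (9.02% of all genes called) became 3 with library totals alone (16.4%) and 0 in a fit of the 2 groups compared (8.09%). With a library left out it ranged from 0 to 1, beside 1.37% to 7.6% of all genes. The member median stayed between -0.38 and -0.09 over all alternatives. In the other comparisons no alternative called a member, and the medians lay between -0.00042 and 0.13 (aged against young) and between 0.13 and 0.41 (combination against control). The cause was not tested. Same-numbered libraries did not deviate together (18 pairs, median correlation of deviations -0.012, range -0.169 to 0.171; 3 of 12 libraries correlated best with their own number), and with the replicate number as a block the members called stayed at 0, 1, 1 and 0 in the order aged against young, anti-PD-1 against control, combination against anti-PD-1 and combination against control. Among the genes followed by name, each fold change whose sign turned was uncalled before and after. With library totals alone, Pcna became 0.00832 (aged against young), -0.144 (combination against anti-PD-1) and -0.00421 (combination against control), and without immunoglobulin, haemoglobin and mitochondrial genes in the scaling it became 0.000394 (aged against young). Ccne1 became 0.0632 with limma-voom (combination against anti-PD-1). With a library left out in turn, fold changes that turned ranged for aged against young from -0.0591 to 0.0142 (Pcna), -0.0692 to 0.129 (Mki67, -0.0284 without either of 2 aged anti-PD-1 libraries), -0.0034 to 0.393 (Cdk1) and -0.0764 to 0.457 (Ccne1), for anti-PD-1 against control from -0.0277 to 0.0899 (Pcna), and for combination against anti-PD-1 from -0.246 to 0.287 (Ccne1). Over all genes, the count of calls ran over the alternatives from 1160 to 3742 (main 2830) for aged against young, 607 to 2972 (2025) for anti-PD-1 against control, 260 to 3038 (1674) for combination against anti-PD-1 and 0 to 68 (0) for combination against control. Depth limits the members of low level most, since Ttk, Kif2c, Ccne1, Melk, Cdc6 and Ccnb1 had at most 68 counts in any library.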
